A study of Mus musculus with 2 samples.

Results

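The 10 genes described here encode enzymes that move carbon between glucose and pyruvate. They were taken by name, with earlier results of these data known, including a glycolysis and hypoxia list that read lower. Hk2, Pfkp, Pfkl, Aldoa, Tpi1 and Pkm stand for glycolysis, and G6pc, Fbp1, Pck1 and Pcx stand for gluconeogenesis. Aldoa and Tpi1 act at shared steps that run both ways. All 10 had 1 named probe each, among 9985 genes with a named and measured probe. The RNA came from kidneys of 2 mice: a control of genotype Mxi1 +/+ and an experimental animal of genotype Mxi1 -/-. Both carry the label 1Y, and no label states their strain, their sex or which part of Mxi1 was deleted. The MXI1 protein pairs with MAX and represses genes that MYC with MAX would activate. Each kidney was hybridised to 1 single-colour CodeLink array, so nothing below has a spread between animals, and no p-value is given.

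Glycolysis splits glucose into pyruvate and yields ATP. Gluconeogenesis runs the same path backwards to make glucose from lactate, glutamine and other precursors. Most steps are shared and reversible, but 3 steps each need a separate enzyme for each direction, and these are where control is exerted. In the kidney, glucose is made in the cells of the proximal tubule, which burn fatty acids and glutamine, while the thick limb, the distal segments and the collecting duct break glucose down. The ratio of both sets of transcripts in whole kidney RNA therefore depends on the mix of cells as well as on the RNA per cell. In bulk tissue fewer cells of a type and less RNA per cell cannot be told apart.

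Values are the deposited linear intensities of 1 probe. Differences are log2 of Mxi1 -/- minus log2 of Mxi1 +/+, after each array was centred on its median, so a negative value is lower in Mxi1 -/-. The library labelled Mxi1 -/- read 1.69 at the Mxi1 probe and the control read 4.31, 2.54-fold apart in the direction of the label. The place of that probe relative to the deletion is not known, so it checks the label in direction only. Across genes the differences ran slightly low: 55.5% of all 9985 measured genes and 59.9% of 5737 genes whose mean level reached the median over probes read lower in the knockout. The medians of those sets were -0.05 and -0.06. Each count of lower genes in a list below is to be read against the shares of 55.5% and 59.9%. Counts of higher genes are to be read against 4445 of the 9985 genes and 2298 of the 5737. For 41 genes a pair of probes passed that level, and the difference varied between probes of a gene with a technical SD of 0.167 per probe, which puts the SD of a gap between 2 probes of that level at 0.236. For dimmer probes, Hk2 among them, it does not hold. This measures hybridisation within the arrays and holds no variation between animals.

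The promoters are shown first, because MYC, MAX and MXI1 are known to bind the E-box CACGTG. HIF1, the hypoxia factor that drives glycolysis genes, is known to bind sites with a core such as ACGTG. No other form of the HIF1 core was searched, so a gene without ACGTG can still hold such a site. RefSeq promoter windows (GRCm38.p6) matched all 10 genes, and the 250 bases before each start were searched on both strands. CACGTG holds ACGTG within it, so each E-box counts under both motifs. Capitals mark every match of either motif on either strand. Hk2 and Aldoa are shown as the genes furthest below the control and Fbp1 as the gene furthest above it. Pkm is shown as the other glycolysis gene with a match and Pcx as the gene with an E-box. Aldoa, Pkm and Pcx have several windows, and a window with a match is printed for each. Each of these genes also has a window without either motif.
Hk2, chr6:82774455-82774704, minus strand: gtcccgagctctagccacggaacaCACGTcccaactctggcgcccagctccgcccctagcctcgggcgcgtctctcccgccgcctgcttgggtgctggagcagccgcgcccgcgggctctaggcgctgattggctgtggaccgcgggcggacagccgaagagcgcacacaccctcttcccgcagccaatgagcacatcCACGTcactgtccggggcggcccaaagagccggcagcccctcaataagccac
Aldoa, chr7:126799255-126799504, minus strand: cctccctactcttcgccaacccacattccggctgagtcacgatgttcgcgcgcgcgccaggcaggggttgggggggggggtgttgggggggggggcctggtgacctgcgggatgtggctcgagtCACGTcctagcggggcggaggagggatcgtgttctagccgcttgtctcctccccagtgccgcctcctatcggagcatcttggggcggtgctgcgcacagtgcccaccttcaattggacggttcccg
Pkm, chr9:59656977-59657226, plus strand: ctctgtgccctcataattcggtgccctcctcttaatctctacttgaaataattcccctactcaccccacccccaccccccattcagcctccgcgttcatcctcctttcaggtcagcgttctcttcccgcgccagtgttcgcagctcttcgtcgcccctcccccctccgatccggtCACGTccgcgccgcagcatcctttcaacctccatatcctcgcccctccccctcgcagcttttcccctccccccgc
Pcx, chr19:4510222-4510471, plus strand: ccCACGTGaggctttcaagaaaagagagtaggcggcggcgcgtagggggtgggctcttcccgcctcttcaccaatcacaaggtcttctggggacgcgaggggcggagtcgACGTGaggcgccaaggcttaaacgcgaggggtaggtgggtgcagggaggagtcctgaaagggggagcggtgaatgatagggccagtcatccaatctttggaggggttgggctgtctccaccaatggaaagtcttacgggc
Fbp1, chr13:62888283-62888532, minus strand: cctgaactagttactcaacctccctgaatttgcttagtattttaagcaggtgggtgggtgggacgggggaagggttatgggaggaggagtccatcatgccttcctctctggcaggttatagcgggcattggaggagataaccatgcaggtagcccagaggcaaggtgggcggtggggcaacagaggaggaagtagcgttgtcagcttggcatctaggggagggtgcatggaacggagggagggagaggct

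Of the 14 windows of these genes, 1 held CACGTG, and it belonged to Pcx, a gene of the gluconeogenesis set. Over all 32851 promoter windows of the same length, 6.02% held it. ACGTG stood in 5 of the 14 windows, from 4 genes (Hk2, Aldoa, Pkm and Pcx), against 16.6% of all windows. A pair of the 3 Aldoa windows overlap and share their match, so they are not separate sites. Hk2 held 2 matches, starting 226 and 52 bases before its start. No ACGTG stood in the windows of Tpi1, Pfkl, Pfkp, G6pc, Fbp1 and Pck1, which says only that these letters are not in these windows. The GC box GGGCGG, searched on both strands, stood in 9 of the 14 windows and in 32.7% of all windows, and TATAAA, also on both strands, stood in 1 window, that of G6pc, and in 12.4% of all windows.

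All 6 glycolysis genes read lower in the Mxi1 -/- kidney, as did 55.5% of all measured genes and 59.9% of those at or above the median level. The 4 gluconeogenesis genes lay on both sides of 0. The median log2 difference was -0.44 over the 6 glycolysis genes. Over the 4 gluconeogenesis genes it was -0.03 (between -0.03 and 0.0087 over the alternatives, so without a direction). The gap was 0.41 (1.33-fold) in favour of gluconeogenesis for these named genes. Outside them the medians lay closer together, at -0.12 over 13 other glycolysis enzymes and -0.03 over 9 other gluconeogenesis and precursor genes. Aldoa and Tpi1 are counted with glycolysis but act at steps that gluconeogenesis shares, so the gap is not wholly between opposed enzymes. With means in place of medians the gap was 0.60. Each value in the gap is a difference between the arrays, so a constant used to centre them cancels, while other array effects need not. Under the other alternatives the gap was 0.36 at the lowest. The difference at the 2-fold line was reached by 2 of the 10 genes, Hk2 and Aldoa, both lower. Against that, 1.39% of genes at or above the median level and 11.3% of genes below it were at least 2-fold lower. No other of the 10 genes reached 1.5-fold, a line that 5.26% of genes at or above the median level passed on the lower side and 2.41% on the higher side.

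**Figure D1:**
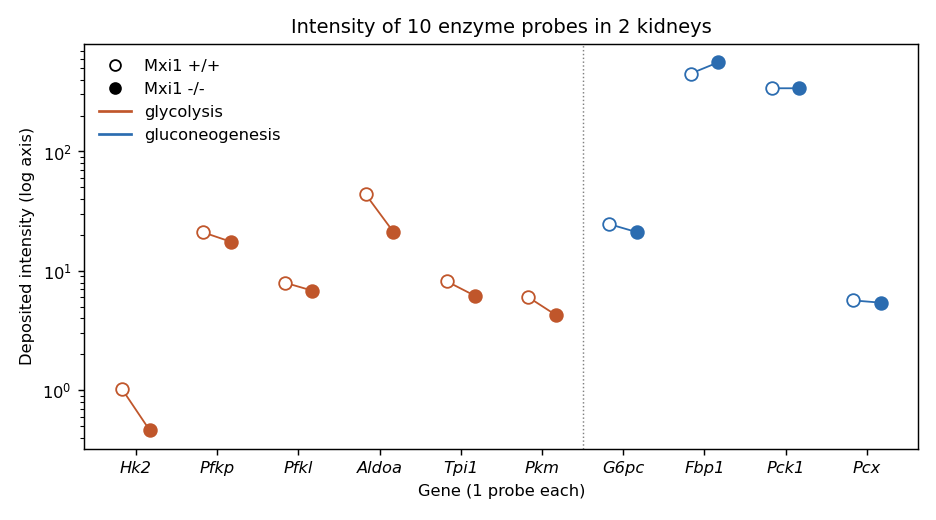
Deposited intensity (log axis) of the 10 enzyme probes in the Mxi1 +/+ kidney (open points) and the Mxi1 -/- kidney (filled points), 1 array each, with no error bars because there are no replicates. The lines of all 6 glycolysis genes slope down, Fbp1 slopes up, and Pck1 is level at 338.

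Among the glycolysis genes, Hk2 stood furthest below the control. Hexokinase 2 traps glucose as glucose phosphate and is the hexokinase that insulin, hypoxia and growth signals are known to induce. Its probe read 1.02 in the control kidney against 0.463 in Mxi1 -/-, which is 2.21-fold lower (log2 -1.14). It is the only 1 of the 10 genes whose mean level lay below the median of all probes, although both readings stood above the noise floors of 0.102 and 0.156, set at 3 times the root mean square of the values below 0 on each array. At such levels 2-fold differences are common (11.3% lower and 12.8% higher among the 4248 genes below the median level), and with the array median added to each value as a pseudocount the difference shrank to -0.48. Hk2 was thus the gene whose value depended most on the processing among the 10.

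Aldolase A splits fructose bisphosphate into a pair of triose phosphates and is the aldolase of muscle and of most glycolytic cells. Aldoa read 43.6 in the control kidney against 21.2 in Mxi1 -/-, which is 2.05-fold lower (log2 -1.04). Only 1.24% of genes at or above the median level had a difference as low or lower. The 3 alternatives that can move such a probe gave -0.97 with quantile normalization, -0.98 with lowess on level and -1.01 with the pseudocount of the array median, so the first 2 put Aldoa just short of 2-fold.

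Pyruvate kinase M makes pyruvate and ATP at the last step of glycolysis and is the form of muscle, proliferating cells and distal nephron. Pkm read 6.04 and 4.28 in Mxi1 +/+ and Mxi1 -/-, 1.41-fold lower (log2 -0.50), with 7.62% of genes at or above the median level as low or lower. The probe is annotated to the gene and does not tell its splice forms apart here. Tpi1, which interconverts the triose phosphates, read 8.17 and 6.22 (1.31-fold lower, log2 -0.39). These genes lay between Aldoa and the phosphofructokinases.

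The phosphofructokinases, which commit sugar to glycolysis, were the glycolysis genes closest to the control. The platelet-type subunit Pfkp read 21.0 and 17.5 (1.20-fold lower, log2 -0.26). The liver-type subunit Pfkl read 7.99 and 6.85 (1.17-fold lower, log2 -0.22). Among the 5737 brighter genes, 23.4% and 27.7% had differences as low or lower than Pfkp and Pfkl. Neither subunit stood apart from the bulk of the array.

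Among the gluconeogenesis genes, Fbp1 stood furthest above the control. Fructose bisphosphatase 1 undoes the phosphofructokinase step. Fbp1 read 448 in Mxi1 +/+ and 557 in Mxi1 -/-, 1.24-fold higher (log2 0.31), and 8.42% of genes at or above the median level were as high or higher. Pck1 encodes the cytosolic phosphoenolpyruvate carboxykinase, which is known in kidney for its induction by acidosis. It read 338 in both kidneys (log2 0.00038). Pcx, pyruvate carboxylase, feeds pyruvate into oxaloacetate in mitochondria and read 5.67 and 5.43 (log2 -0.06, and 0.0070 after quantile normalization). Neither Pck1 nor Pcx has a resolved direction.

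G6pc went with the phosphofructokinases rather than with Fbp1. It encodes the catalytic subunit of glucose-6-phosphatase, the enzyme that releases free glucose at the end of gluconeogenesis. Its probe read 24.6 in the control and 21.1 in the knockout, 1.17-fold lower (log2 -0.22), a difference equal to that of Pfkl to the second decimal. The 2 sets therefore overlap at their edges. Ordered from lowest to highest, the differences ran Hk2, Aldoa, Pkm, Tpi1, Pfkp, G6pc, Pfkl, Pcx, Pck1 and Fbp1. Only 2 pairs of neighbours in that order were separated by more than the technical SD of a gap: Aldoa from Pkm, by 0.54, and Pck1 from Fbp1, by 0.31.

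**Figure D2:**
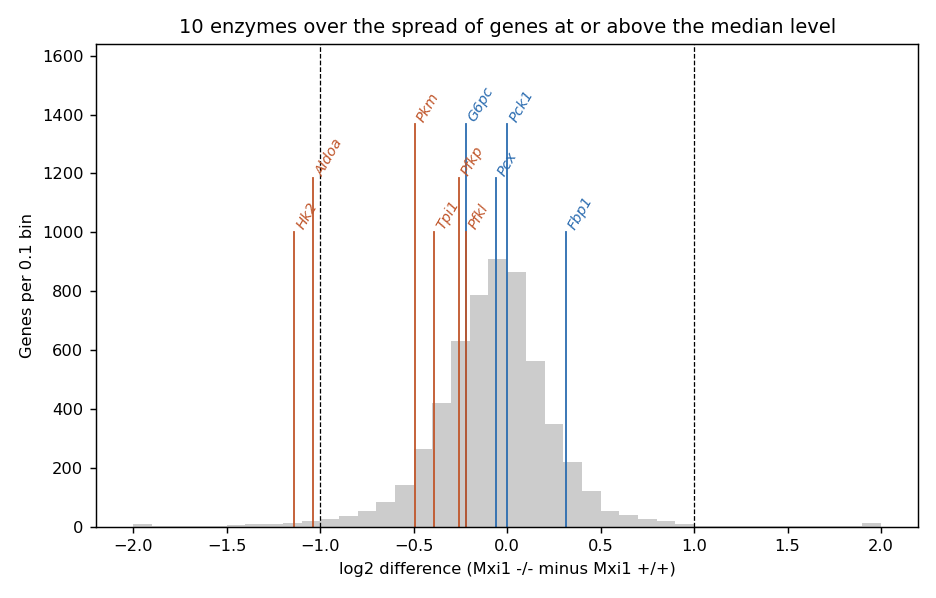
log2 difference (Mxi1 -/- minus Mxi1 +/+) of 5737 genes whose mean level reached the median over probes, in bins of 0.1 (grey bars, values beyond the axis placed in the end bins), with the 10 enzymes as vertical lines, orange for glycolysis and blue for gluconeogenesis, and dashed lines at 2-fold. Aldoa and Hk2 stand past the lower dashed line, though Hk2 itself is below the median level and is not among the grey bars, and the other 8 enzymes lie between the dashed lines.

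The 3 steps with separate enzymes were compared within the 10 genes. At each step the gluconeogenesis gene had a higher Mxi1 -/- to Mxi1 +/+ ratio than the glycolysis gene. With other isoenzymes, given below, that order did not hold at the glucose and pyruvate steps, and with Fbp2 it was not resolved at the fructose step. Between glucose and glucose phosphate, G6pc stood 0.92 (1.89-fold) above Hk2, a gap set against no technical SD because Hk2 lies below the level at which that SD was estimated. Between fructose phosphate and its bisphosphate, Fbp1 stood 0.57 above Pfkp and 0.54 above Pfkl, 2.43 and 2.27 times the technical SD of a gap. Between phosphoenolpyruvate and pyruvate, Pck1 stood 0.50 and Pcx 0.43 above Pkm, 2.10 and 1.83 times that SD. The gap at glucose rests on the dim Hk2 probe and came to 0.27 with the pseudocount. The other 4 gaps lay between 0.37 and 0.56 under quantile normalization, lowess and the pseudocount, the 3 alternatives that can move them. No spread between animals is available for any of them.

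Other isoenzymes at the same steps lay closer to 0 than Hk2 and Pkm. Hk1, the hexokinase found in most cells, read 8.44 in Mxi1 +/+ and 8.22 in Mxi1 -/-, and the hexokinase-domain gene Hkdc1 read 1.64 and 1.58, so Hk2 stood 1.10 and 1.08 below them on the log2 scale. Pklr, the pyruvate kinase of liver, red cells and proximal tubule, read 7.69 and 7.89, and its difference was 0.53 above that of Pkm, 2.25 times the technical SD of a gap. Pfkm, the muscle-type phosphofructokinase subunit, read 11.7 and 10.4 (log2 -0.17), within that SD of Pfkl and Pfkp. Fbp2, the muscle-type fructose bisphosphatase, read 19.9 and 19.2 (log2 -0.05), 0.37 below Fbp1. In these readings the lower values at the hexokinase and pyruvate kinase steps were those of Hk2 and Pkm and not of each isoenzyme of the step. Hk1 (log2 -0.04) and Hkdc1 (log2 -0.06) lay above G6pc (log2 -0.22). Pklr (log2 0.04) lay above Pck1 (log2 0.00038) and Pcx (log2 -0.06). Each of these gaps was smaller than the technical SD of a gap. Pfkm stayed below both Fbp1 and Fbp2, but Fbp2 lay within the technical SD of a gap of Pfkm, Pfkl and Pfkp. The order at the fructose step is thus not resolved with Fbp2.

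**Figure D3:**
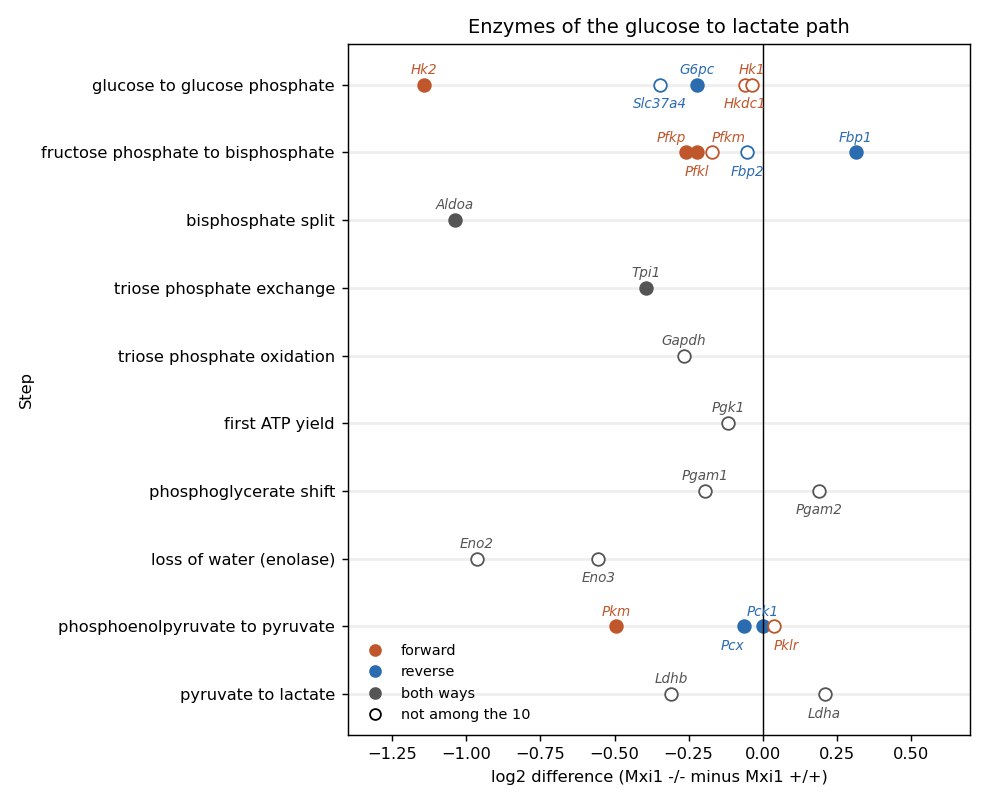
log2 difference (Mxi1 -/- minus Mxi1 +/+) of each measured enzyme along the path from glucose (top) to lactate (bottom), orange for the forward direction, blue for the reverse direction and grey for steps that run both ways, with filled points for the 10 genes. At the 3 steps with separate enzymes the filled blue points lie to the right of the filled orange ones, while Hk1, Hkdc1 and Pklr lie close to 0.

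Of the 8 other genes measured at the shared, reversible steps 6 read lower and 2 read higher. Over all 13 other measured glycolysis enzymes, among them Hk1, Hkdc1, Pfkm and Pklr of the one-way steps, 9 read lower and 4 read higher (median -0.12), where 55.5% of all measured genes read lower, and none reached 2-fold. Gapdh, which oxidises triose phosphate, read 376 and 312 (1.20-fold lower), Pgk1, the first ATP-yielding enzyme, read 71.1 and 65.5 (1.08-fold lower), and Pgam1, a phosphoglycerate mutase, read 81.7 and 71.3 (1.15-fold lower). The enolases went further: Eno3, the muscle type, read 2.94 in the control and was 1.47-fold lower, and the neuronal type Eno2, below the median level, read 0.569 and 0.291 (1.95-fold lower). The muscle-type mutase Pgam2 read 23.3 and 26.6 (1.14-fold higher), and Bpgm, the red cell mutase, read 2.88 and 2.98.

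The lactate dehydrogenase subunits split. Ldhb, which favours lactate use and is the subunit of oxidative tissue, read 164 and 132 (1.24-fold lower). Ldha, which favours lactate production and is a known MYC and HIF1 target, read 93.2 and 108 (1.16-fold higher). The gap of 0.52 between them was 2.19 times the technical SD of a gap. Ldha thus went against the 6 glycolysis genes. Taken with the 6, 15 of 19 measured glycolysis enzymes were lower, with a median of -0.22, where 55.5% of all measured genes read lower. The count and the median include the 6 genes that were picked by name with earlier results known, so they are a description of these arrays.

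The other enzymes that supply gluconeogenesis stayed near the bulk. Of 9 measured genes 7 read lower and 2 read higher (median -0.03, and up to 0.05 over the alternatives). Slc37a4, the carrier that hands glucose phosphate to G6pc, read 27.8 and 21.9 (1.27-fold lower), so both parts of the glucose-releasing system were on the lower side. The aspartate aminotransferases Got1 and Got2 read 9.40 and 7.83 (1.20-fold lower) and 61.2 and 58.8 (1.04-fold lower). Mdh1, the cytosolic malate dehydrogenase that exports carbon for glucose synthesis, read 455 and 609 (1.34-fold higher), and Glud1, which opens glutamate to the TCA cycle, read 66.0 and 72.8 (1.10-fold higher). Glul, glutamine synthetase, read 228 and 223, Gpd1, glycerol phosphate dehydrogenase, read 14.0 and 13.7, and Mdh2, the mitochondrial malate dehydrogenase, read 122 in both, so these last genes, counted as lower, have no resolved direction. With the 4 named genes, 9 of 13 were lower, with a median of -0.03.

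Pyruvate leaves glycolysis for the TCA cycle through the mitochondrial pyruvate carrier and pyruvate dehydrogenase, which the PDK kinases inhibit. Of 6 measured genes of this entry and its control 5 read lower, where 55.5% of all measured genes did. Their median was -0.58, or -0.32 without Pdk4, which lay below the median level. The 3 measured subunits of the complex were all on the lower side: Pdha1, a catalytic subunit, read 6.13 and 2.92 (2.10-fold lower), Dld, the shared dehydrogenase subunit, read 8.08 and 4.52 (1.79-fold lower), and Dlat, the acetyltransferase, read 15.7 and 14.0 (1.13-fold lower). The inhibitory kinase Pdk3 read 5.09 and 4.07 (1.25-fold lower). Pdk4, the kinase that fasting induces, read 1.23 and 0.523. Dlat and Pdk4 were chosen after their values were seen. The exception was Mpc1, a subunit of the mitochondrial pyruvate carrier, which read 79.5 and 94.2 (1.19-fold higher).

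Carriers of sugar, lactate and pyruvate lay on both sides as a list. Of 14 measured carriers of glucose, fructose, lactate and pyruvate 8 read higher and 6 lower (median 0.11, or 0.03 over the 8 at or above the median level). Slc2a2, the glucose exit carrier of the proximal tubule, read 6.17 and 5.97. The monocarboxylate carriers went both ways, with Slc16a7 at 22.9 and 18.5 (1.24-fold lower), Slc16a3, the lactate exporter of glycolytic cells, at 0.863 and 1.19 (1.38-fold higher), Slc16a4 at 26.8 and 30.6 (1.14-fold higher) and the sodium-coupled Slc5a8 at 15.1 and 18.2 (1.20-fold higher). The fructose carrier Slc2a5 read 1.87 and 1.72. Slc2a3, counted among the 8 that read higher, lay under the noise floor in Mxi1 +/+ and is not given a fold.

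Fructose and polyol enzymes were higher in 3 of 3 measured genes, where 4445 of all 9985 measured genes read higher. Ketohexokinase (Khk), which starts fructose use in the proximal tubule, read 97.1 and 136 (1.40-fold higher). The aldehyde reductase Akr1a1 read 626 and 743 (1.19-fold higher). The triose kinase Tkfc read 38.4 and 39.9 (1.04-fold higher), which is too little to have a direction. Glycogen genes were lower in 7 of 9, with a median of -0.26, where 55.5% of all measured genes read lower. Pygm (log2 -0.02) and Phkg1 (log2 -0.07), chosen after their values were seen, were lower by too little to have a direction. Liver-type phosphorylase (Pygl) read 18.9 and 12.9 (1.46-fold lower) and glycogen synthase 2 (Gys2) 3.75 and 2.84 (1.32-fold lower). Brain-type phosphorylase (Pygb) read 10.3 and 8.58 (1.20-fold lower), while Phka1, a phosphorylase kinase subunit, read 32.2 and 32.7. Pentose phosphate genes were lower in 4 of 5, with a median of -0.21: Rpia read 4.05 and 2.15 (1.89-fold lower), Rpe 2.81 and 2.33 (1.21-fold lower) and transketolase (Tkt) 46.3 and 40.1 (1.15-fold lower), while Pgls was 1.23-fold higher. The list of flux regulators had 2 measured genes, Pfkfb2 and Gckr, both below the median level, and Pfkfb2 lay under the floor in Mxi1 -/-.

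Factors known to control these genes lay on both sides. Of 19 measured regulators 11 read lower and 8 read higher (median -0.03, and up to 0.03 over the alternatives), and none at or above the median level reached 1.5-fold. Ppargc1a, the coactivator that drives Pck1 and G6pc in liver, read 4.12 and 5.71 (1.39-fold higher), while Foxo1, the insulin-restrained factor that also drives them in liver, read 13.0 and 8.89 (1.47-fold lower). Cebpa and Cebpb, which bind the Pck1 promoter in liver, read 1.37 and 0.954 (1.44-fold lower) and 1.42 and 1.21 (1.18-fold lower). The glucagon receptor gene Gcgr read 5.40 and 6.45 (1.20-fold higher), and the HIF1 partner Arnt read 1.72 and 2.33 (1.35-fold higher).

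Hypoxia targets outside glycolysis were lower in 8 of 11, with a median of -0.08, so as a list they lay near all genes. Hmox1, the heme oxygenase, read 17.3 and 9.80 (1.77-fold lower), the stress gene Ndrg1 read 21.2 and 12.0 (1.76-fold lower) and the vessel growth factor Vegfa read 5.87 and 4.56 (1.29-fold lower). The mitophagy genes Bnip3 and Bnip3l, which HIF1 is also known to induce, went the other way at 42.6 and 60.4 (1.42-fold higher) and 28.7 and 41.1 (1.44-fold higher).

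Markers of the nephron segments were compared beside the 10 genes. Of 21 measured proximal tubule markers 12 read lower and 9 read higher (median -0.08), and their summed intensity was 2611 in Mxi1 +/+ and 2674 in Mxi1 -/-. None lay under the noise floor in either kidney, so markers of the cell type in which the kidney makes glucose were read on both arrays. The extremes were Cyp4b1 (1.67-fold lower), Gatm (1.55-fold lower), Dpep1 (1.51-fold higher) and Napsa (1.63-fold higher). Fbp1 and Pck1, with differences of 0.31 and 0.00038, lay inside this range. Of 18 distal nephron and collecting duct markers 11 were lower, with a median of -0.31 and a range from -0.72 to 0.39. Their summed intensity was 371 and 405, a sum in which the bright Calb1 (134 and 166) weighs most. The potassium channel Kcnj1 (log2 -0.65) and the anion exchanger Slc26a4 (log2 -0.58) were lowest among those at or above the median level, and Calb1 (1.24-fold) and Egf (1.31-fold) were highest. Pkm, Tpi1, Pfkp and Pfkl lay inside that range and Hk2 and Aldoa below it.

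Marker lists of fat, smooth muscle, skeletal muscle and stratified epithelium had medians below those of all genes, while blood and immune lists, given below, did not. Adipocyte markers were lower in 11 of 12, 1 of them (Lep, 4.86 and 4.83) by too little to have a direction, with a median of -1.90 and a summed intensity of 270 in Mxi1 +/+ and 92.2 in Mxi1 -/-. The lipid droplet protein Cidea (19.8-fold) and carbonic anhydrase Car3 (6.75-fold) were lowest by the naming rule. The brown fat uncoupler Ucp1 read 8.52 in the control and was under the floor in the knockout (at least 54.7-fold lower against that floor), and the fat cell lipid binder Fabp4 read 183 and 72.1. The insulin-sensitive glucose carrier Slc2a4, below the median level, read 0.736 and 0.922 (1.25-fold higher). Lep, Ucp1, Fabp4 and Slc2a4 were chosen after their values were seen. Fat, muscle and stratified epithelium are known to express Hk2, Aldoa and Pkm. The part of fat in the lower readings of the glycolysis genes was not tested.

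Smooth muscle markers were lower in 4 of 6, with a median of -0.66 and a summed intensity of 48.4 and 34.9. Calponin (Cnn1) was 2.96-fold and smooth muscle myosin (Myh11) 1.75-fold lower, and Tagln was 1.05-fold higher. Stratified epithelium markers were lower in 7 of 9, with a median of -0.40 and a summed intensity of 38.0 and 19.1. Sprr1a (5.03-fold) and Sprr2a1 (4.91-fold) were lowest, and Upk1b and Krt6a were 1.02-fold and 1.17-fold higher. Skeletal muscle markers were lower in 5 of 7, none at or above the median level, with a summed intensity of 3.15 and 1.58. Of these 7, Tnnt3 lay under the floor in both kidneys and Tnnc2, Ckm and Actn3 lay under it in Mxi1 -/-. The part of smooth muscle and stratified epithelium in the lower glycolysis readings was not tested.

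Blood and immune cell markers were mixed. Erythroid markers were higher in 3 of 5, with a summed intensity of 458 and 619 that the globins dominate. The globin genes Hba-a1 and Hbb-bt were 1.28-fold and 1.46-fold higher and Bpgm 1.04-fold higher, while the dim red cell membrane genes Slc4a1, which is also on the distal nephron list, and Epb42 read 1.65-fold and 1.36-fold lower. Macrophage markers were higher in 8 of 12, with a summed intensity of 50.2 and 64.5. Ctss and C1qa were 1.67-fold and 1.57-fold higher, and Cd14 and Lyz1 were 1.18-fold and 1.09-fold lower. Lymphocyte markers were higher in 7 of 12, with a summed intensity of 13.9 and 16.8, led at or above the median level by Fcer2a (2.15-fold higher) and Cd4 (1.29-fold higher). Itgam, Ms4a1 and Ptprc lay under the floor in Mxi1 -/-. Their dim control readings (0.255, 0.217 and 0.448) stood 1.64-fold, 1.39-fold and 2.87-fold above that floor, at levels where 2-fold differences are common. Bpgm, Slc4a1, Epb42 and these last genes were chosen after their values were seen. The medians of these lists were 0.05, 0.21 and 0.16, while that of the 6 glycolysis genes was -0.44.

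**Figure D4:**
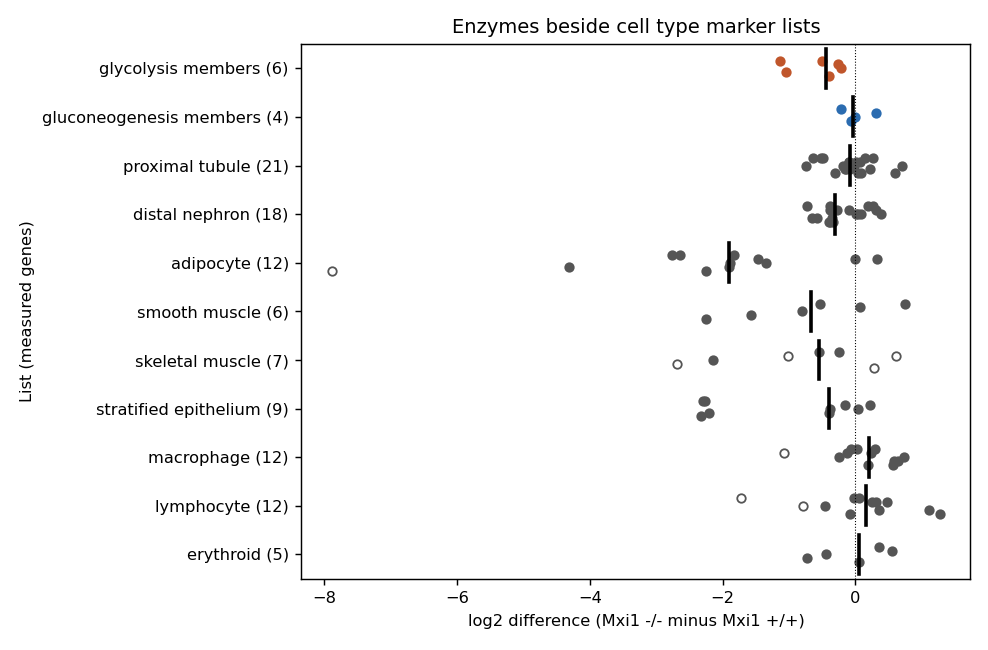
log2 difference (Mxi1 -/- minus Mxi1 +/+) of each measured gene of the 2 enzyme sets and of 9 cell type marker lists, 1 point per gene, with the list median as a black bar and open points where a reading lies under the noise floor. The adipocyte list stands furthest to the left with a median of -1.90, and the gluconeogenesis set (-0.03) and the proximal tubule list (-0.08) both lie near 0.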

How the data were processed

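Kidney RNA was amplified to biotin-labelled cRNA for CodeLink arrays, per the labels' protocols. The deposited table gives a linear intensity for each of 20289 probes on both arrays. How the authors corrected background and scaled the arrays is stated in no label, and the column medians are 0.929 and 0.935. The code -9999 was read as missing, and the 19663 probes above 0 on both arrays were kept. Each array was centred on its median log2 intensity. The platform annotation named 10349 probes, and the brightest probe of a gene was used. No name was given for the remaining 9940, so genes left out of the text can still have a probe. Folds are a rule of size, not a test, and the number of arrays limits the precision.

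The naming rule took the 10 enzymes, Mxi1 and, from each other list, the genes furthest from 0 on each side, among those at or above the median level (at most 3 a side for pathway lists and 2 for marker lists). The members and lists were chosen with earlier results of these data known, including a glycolysis and hypoxia list that read lower, so they lend it no independent support. Alternatives were quantile normalization, lowess on level, arrays left without centring, a pseudocount, averaged probes, level filters, means over members and, added after seeing the data, a noise floor. The procedure was tested on simulated data. The tools were pandas 2.3.3, statsmodels 0.14.6, NumPy 2.4.6 and matplotlib 3.10.9 under Python 3.11.15.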

Additional observations from a re-analysis of the deposited data

How the results depend on the processing

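All 6 glycolysis genes stayed lower under quantile normalization, lowess on level and the pseudocount. The other 3 alternatives run on them could hardly move them: each has 1 probe, none lies under the noise floor, and leaving out the centring shifts every value alike by -0.00071. Aldoa fell short of 2-fold with quantile normalization (-0.97) and lowess (-0.98). The gap between the medians of both sets ran from 0.36 to 0.60, the latter with means over members, and Fbp1 from 0.31 to 0.32. The differences of Pck1 (-0.0044 to 0.018) and Pcx (-0.06 to 0.0070) are too close to 0 to have a direction. The pseudocount of the array median, which shrinks low readings by construction, moved Hk2 to -0.48, the adipocyte median to -1.34, the skeletal muscle median to -0.10 and the flux regulator median to -0.0235. The noise floor moved the skeletal muscle median to -0.11 and turned that of the flux regulators, which rests on 2 dim genes, from -0.82 to 0.0412. Over the brighter members alone (mean level not below the median of all probes), the list medians were -0.32 for pyruvate entry, 0.36 for erythroid and -2.20 for stratified epithelium genes.

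The number of genes at least 1.5-fold lower, 302 as reported, was 180 with the pseudocount, 1184 with no filter on level and 129 with the level at or above the 75th percentile. At 2-fold it was 80 as reported and 44, 558 and 35 under the same alternatives. Of 88 single genes and pair gaps outside the 10 differences, 15 moved by more than the technical SD of 0.167 with the pseudocount, 1 with the noise floor and none with quantile normalization or lowess, and none of these moved values changed sign. Hk1, Fbp2, Glul, Gpd1, Mdh2 and Slc2a2, all close to 0, changed sign under quantile normalization or lowess and have no direction. No paired analysis was possible because each genotype has 1 sample. For the same reason no replicate could be left out. Signal over background limits the genes below the median level, Hk2, Eno2, Pdk4 and Pfkfb2 among them, since 2-fold differences between the arrays are common there.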
